A study of Mus musculus with 6 samples.

Results

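Rab proteins are small GTP-binding proteins that mark the membranes of the cell and direct vesicles between them. A Rab is active while it holds GTP: guanine nucleotide exchange factors load it, GTPase-activating proteins switch it off, and GDP dissociation inhibitors carry the inactive, prenylated protein through the cytosol. In neurons, Rab proteins serve synaptic vesicle release, the endosomes of axons and dendrites, and the transport of newly made membrane proteins. The Rab genes were taken as the rows of the deposited table whose symbol is Rab, a number and at most one letter with one further digit, which gave 59 of 21959 genes. By role, 21 were placed among endocytic Rabs, 19 among secretory Rabs of the endoplasmic reticulum, Golgi and routes to the cell surface, 8 among synaptic and regulated-exocytosis Rabs, and 11 among the others.

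The groups were mice with chronic constriction injury (CCI, replicates 1, 2 and 3), a model of neuropathic pain made by loosely tying a peripheral nerve, and mice with no treatment (PVT_WT, replicates 4, 5 and 6). Both groups carry the genotype label WT, and the design text gives the tissue as the paraventricular thalamus, a midline thalamic nucleus, with 30 mice in each group. Strain, sex, age and the time after injury are not given in the sources used here. It is also not given how the mice were divided among the libraries, so p-values refer to the variation among libraries, and part of that may be technical. Gene expression was measured by poly-A selected bulk RNA sequencing, in which fewer cells of a type and less RNA per cell cannot be told apart.

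Total counts were 7989139 to 10529886 in the CCI libraries and 12337448 to 15438268 in the PVT_WT libraries. Levels are given below as CPM, counts scaled to library size after TMM scaling (trimmed mean of M-values, which sets the libraries to a common level over most genes), or as deposited FPKM where genes are compared with each other, since FPKM is divided by gene length. The TMM factors lay at 1.21 to 1.25 for CCI libraries and 0.69 to 0.90 for PVT_WT libraries, and the deposited FPKM carries no such scaling. Over all tested genes, log2 fold changes lay 0.51 higher at the median on log2(FPKM + 1) than after TMM scaling, so each direction below is given relative to TMM-scaled libraries unless the scale is named. PVT_WT replicate 5 stood apart from the other controls in several Rab genes, as the values below show.

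Markers of the tissue moved with the groups. All 6 thalamic markers were lower in CCI, with a summed level of 1140 to 1861 CPM in CCI and 4414 to 7232 CPM in PVT_WT. Of 8 pan-neuronal markers 1 was higher and 2 were lower, with sums of 3439 to 3787 CPM in CCI and 7166 to 9385 CPM in PVT_WT, and without the most abundant, Snap25, 1979 to 2235 CPM in CCI and 2260 to 2428 CPM in PVT_WT. Of 7 tested cortical and hippocampal markers 5 were higher (26.8 to 121 CPM in CCI, 17.1 to 25.9 CPM in PVT_WT), as were all 5 tested GABAergic markers (96.3 to 354 CPM in CCI, 46.8 to 72.1 CPM in PVT_WT). CCI replicate 3 had the highest cortical and GABAergic sums and the lowest thalamic sum of the CCI libraries. In CCI replicates 1 and 2 these sums were 43.6 and 26.8, 96.3 and 176, and 1848 and 1861 CPM. Of 8 oligodendrocyte markers 6 were higher (18490 to 24364 CPM in CCI, 7154 to 13908 CPM in PVT_WT), and of 6 oligodendrocyte precursor markers 4 were (455 to 560 CPM in CCI, 122 to 152 CPM in PVT_WT). Astrocyte markers went both ways, with 2 of 8 higher and 3 lower (3505 to 4216 CPM in CCI, 8067 to 10767 CPM in PVT_WT, and without Aldoc 2443 to 3262 CPM in CCI, 3349 to 4529 CPM in PVT_WT). Of 6 habenula markers 3 were lower (211 to 587 CPM in CCI, 474 to 1618 CPM in PVT_WT) and of 6 microglia markers 1 was lower and 5 did not pass. Of 6 endothelial and mural markers 2 were higher and 1 lower (242 to 296 CPM in CCI, 301 to 378 CPM in PVT_WT), where without Rgs5 the order of the sums turned (138 to 169.6 CPM in CCI, 103 to 121 CPM in PVT_WT). Of 5 choroid plexus and ependymal markers 1 was higher (1983 to 2855 CPM in CCI, 288 to 4108 CPM in PVT_WT, and without Ttr 67.4 to 109 CPM in CCI, 28.7 to 126 CPM in PVT_WT). The sum of 288 CPM was that of PVT_WT replicate 6, against 2695 and 4108 CPM in replicates 4 and 5. Dlx2, a GABAergic marker, was the listed marker with no count in at least 1 library. The part of these markers in the results on Rab genes was not tested.

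After TMM scaling, most Rab genes that passed the test were lower in CCI, while on the FPKM scale as many were higher as lower. Of the 59 Rab genes 54 had enough counts to be tested with edgeR's quasi-likelihood test, and 25 of them were lower and 4 higher at an adjusted p of 0.05, with 25 not passing. Over all 14259 tested genes 25.3% were called lower and 27.0% higher. The median log2 fold change was -0.58 over the tested Rab genes and 0.06 over all tested genes. On log2(FPKM + 1) the median turned to 0.02 for Rab genes, against 0.42 for all genes, and 14 Rab genes were higher and 14 lower, where 47.6% of all genes were higher and 9.64% lower. In CPM the 3 CCI libraries lay wholly below the 3 PVT_WT libraries in 31 of the 54 and wholly above them in 5, against 29.4% and 33.6% of all tested genes. The summed level of the 59 genes was 4624 to 5166 CPM in CCI and 10019 to 11306 CPM in PVT_WT, and on the deposited scale 1509 to 1596 FPKM in CCI and 1951 to 2509 FPKM in PVT_WT. On either scale the summed levels of the groups did not overlap.

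**Figure D1:**
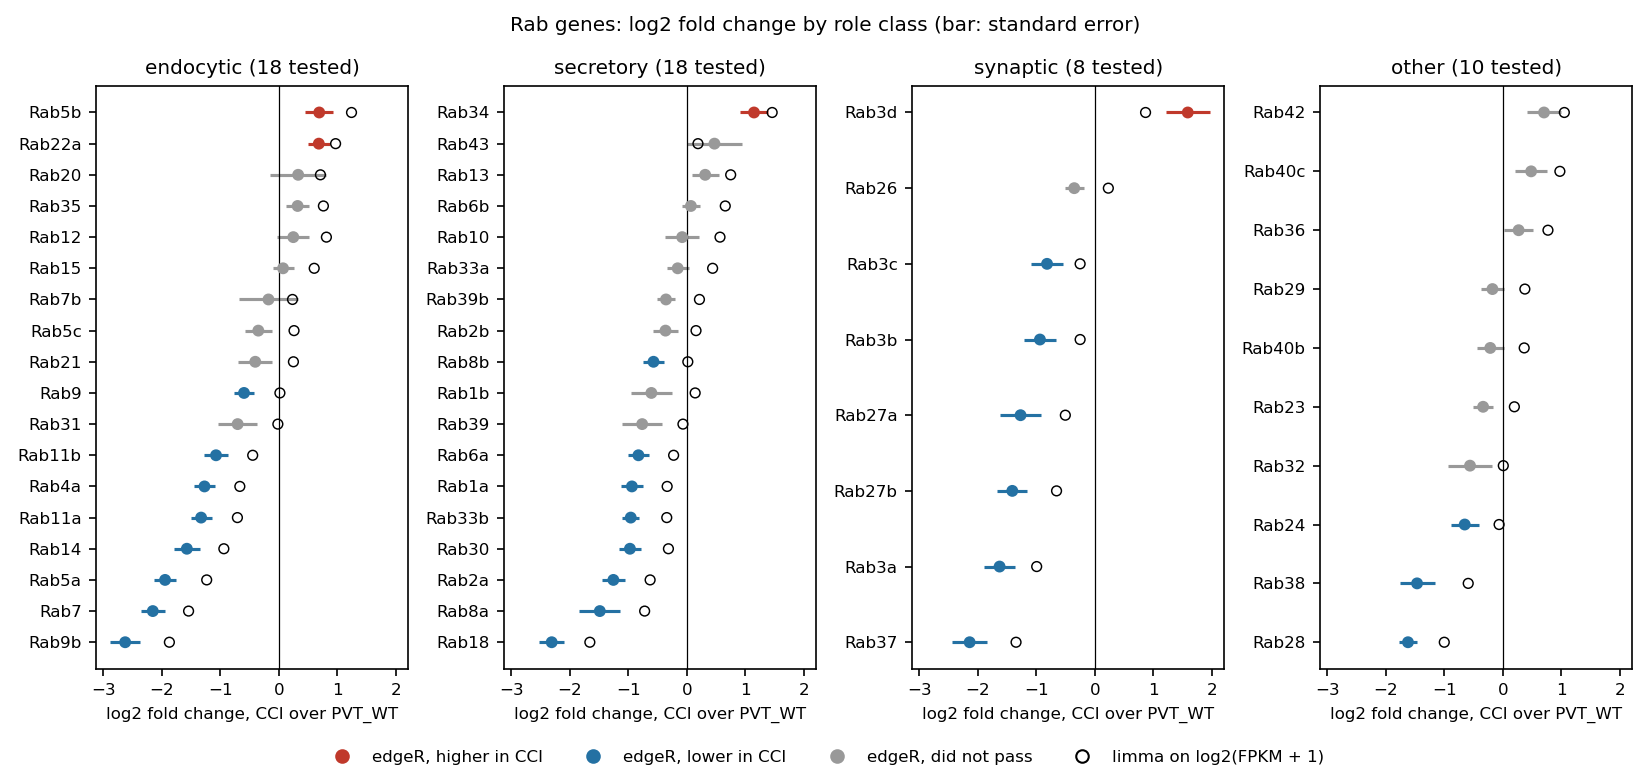
Log2 fold changes of the 54 tested Rab genes, CCI over PVT_WT, by role class. Filled points are edgeR estimates with TMM scaling, coloured by call, with bars of 1 standard error, and open circles are limma estimates on log2(FPKM + 1). The open circles lie to the right of most filled points, and Rab9b, Rab7, Rab18 and Rab37 lie below -2 in the edgeR fit.

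The calls that held in all 16 alternative settings were 9 falls and 1 rise. The falls were Rab5a, Rab7, Rab9b and Rab14 of the endocytic class, Rab18 of the secretory class, Rab27b and Rab37 of the synaptic class, and Rab28 and Rab38 of the others. The rise was Rab34. The fold changes went with expression level. Across the 54 Rab genes the Spearman correlation of the log2 fold change with the mean FPKM was -0.52, and across all tested genes it was also -0.52. With the share of G and C bases in the longest annotated transcript it was 0.53 across Rab genes and 0.17 across all genes. These correlations are descriptions across genes of the same 6 libraries, and genes are not independent replicates. With gene length, GC content and mean expression fitted out in each library, 13 Rab genes were lower and 5 higher, against 19.1% and 18.3% of all genes, and the Rab median was -0.08.

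**Figure D2:**
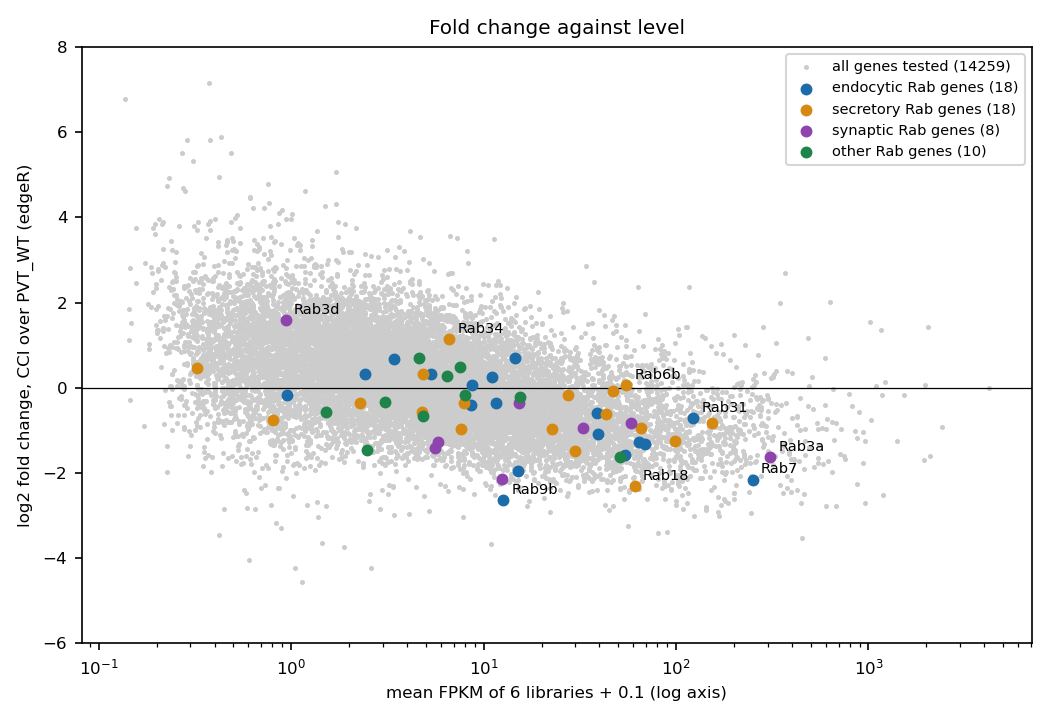
Log2 fold change (edgeR, CCI over PVT_WT) of every tested gene against its mean FPKM over 6 libraries plus 0.1, on a log axis. Grey points are all 14259 tested genes and coloured points are the Rab genes by role class. Abundant genes lie lower, and Rab9b and Rab18 lie near the lower edge of the cloud at their level.

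Endocytic Rabs carry cargo from the cell surface through early, recycling and late endosomes. Of 21 genes 18 were tested, of which 8 were lower, 2 were higher and 8 did not pass, with a median log2 fold change of -0.50, which was 0.12 on log2(FPKM + 1). Thus 44.4% were lower and 11.1% higher, against 25.3% and 27.0% of all tested genes. The early endosome gene Rab5a, the late endosome and lysosome gene Rab7 and the Rab9 paralog gene Rab9b fell most clearly. Rab5a (ENSMUSG00000017831, chromosome 17, 53786262 to 53814708, plus strand, GRCm39) had 37.9, 37.9 and 33.9 CPM in CCI replicates 1 to 3, against 111, 163 and 149 CPM in PVT_WT replicates 4 to 6. Rab7 (ENSMUSG00000079477, chromosome 6, 87976088 to 88022252, minus strand, GRCm39) had 274, 286 and 250 CPM in CCI, against 1069, 1340 and 1203 CPM in PVT_WT. For both genes every CCI library lay well below every PVT_WT library. Rab5a fell by 1.95 ± 0.19 on the log2 scale (SE, adjusted p = 0.00021) and Rab7 by 2.16 ± 0.21 (adjusted p = 0.00021). With length, GC content and mean expression fitted out, Rab7 was at -0.78 and still passed (adjusted p = 0.00553). Of the 50-base words in its longest transcript, 14.5% also occur in transcripts of other genes, so some Rab7 reads may be shared.

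Rab9b, on the X chromosome (135758896 to 135769504, minus strand, GRCm39), had 13.4, 22.6 and 11.8 CPM in CCI and 93.5, 100.1 and 102 CPM in PVT_WT. Its log2 fold change of -2.63 ± 0.25 (adjusted p = 0.00021) was the lowest of the tested Rab genes, a level 6.18-fold higher in PVT_WT. Its paralog Rab9, which serves the return of mannose 6-phosphate receptors from late endosomes to the Golgi, had 52.0, 59.0 and 54.8 CPM in CCI and 69.7, 101 and 80.5 CPM in PVT_WT. The groups did not overlap for Rab9 in CPM, and its log2 fold change was -0.60 ± 0.17 (adjusted p = 0.0191). Its direction depended on the scale, since on log2(FPKM + 1) it was at 0.02 (adjusted p = 0.923), and with length, GC content and mean expression fitted out it was higher, at 0.47 (adjusted p = 0.0221). The Rab9 call was lost on leaving out CCI replicate 1 or 3 (adjusted p = 0.0822 and 0.0596).

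Rab11a, Rab11b and Rab4a, which act in recycling, and Rab14 were called lower. Rab11a, the main Rab of the slow recycling route, had 120, 133 and 122 CPM in CCI and 323, 264 and 356 CPM in PVT_WT (-1.33 ± 0.18, adjusted p = 0.000606). Its paralog Rab11b had 144, 177 and 162 CPM in CCI and 378, 261 and 377 CPM in PVT_WT (-1.08 ± 0.20, adjusted p = 0.00281). Rab4a, which acts in rapid recycling from early endosomes, had 62.3, 82.8 and 66.1 CPM in CCI and 157, 165 and 188 CPM in PVT_WT (-1.27 ± 0.17, adjusted p = 0.000648). All 3 genes were lower in every CCI library than in any PVT_WT library in CPM, but in FPKM Rab11b overlapped between groups. With length, GC content and mean expression fitted out, Rab11a, Rab11b and Rab4a were at -0.23, -0.44 and -0.41 and did not pass (adjusted p = 0.432, 0.124 and 0.0578). Rab14, found on early endosomes and the trans-Golgi network, had 393, 446 and 384 CPM in CCI and 1057, 1482 and 1104 CPM in PVT_WT (-1.57 ± 0.22, adjusted p = 0.000757), and was at -1.37 in that correction (adjusted p = 0.000539).

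Rab5b and Rab22a were the 2 endocytic Rab genes called higher. Rab5b, a paralog of Rab5a on the same early endosomes, had 70.1, 68.2 and 70.6 CPM in CCI and 58.4, 28.1 and 42.8 CPM in PVT_WT, with a log2 fold change of 0.69 ± 0.24 (adjusted p = 0.0406). Its PVT_WT libraries were spread widely and its CCI libraries were close together. The Rab5b call was lost without CCI replicate 1, 2 or 3 or PVT_WT replicate 6 (adjusted p = 0.0908 to 0.105), and without PVT_WT replicate 5 its change was 0.44 (adjusted p = 0.0152). Rab22a, which acts between early and recycling endosomes, had 28.5, 28.5 and 25.9 CPM in CCI and 15.3, 21.4 and 15.1 CPM in PVT_WT (0.68 ± 0.19, adjusted p = 0.0169). Leaving out CCI replicate 1 or 2 or PVT_WT replicate 4 or 6 ended the call (adjusted p = 0.0596 to 0.0694), as did fitting out length, GC content and mean expression (0.37, adjusted p = 0.144).

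Among the endocytic Rab genes that did not pass, Rab31 was the most abundant, at 120 ± 24.3 FPKM in CCI and 124 ± 41.2 FPKM in PVT_WT (SD, n = 3). Rab31, which moves cargo between the trans-Golgi network and endosomes, had 311, 350 and 457 CPM in CCI and 419, 956 and 450 CPM in PVT_WT, with replicate 5 far above the other controls. Its log2 fold change was -0.71 ± 0.34 (adjusted p = 0.108), -0.24 without PVT_WT replicate 5 (adjusted p = 0.227) and -0.95 without PVT_WT replicate 4, where it passed (adjusted p = 0.0461). Rab5c, Rab7b, Rab12, Rab15, Rab20, Rab21 and Rab35 lay between -0.40 and 0.33, each with an adjusted p over 0.05, and on log2(FPKM + 1) Rab12, Rab15, Rab20 and Rab35 were higher. Without PVT_WT replicate 5, Rab5c (-0.58, adjusted p = 0.00454) was lower and Rab12 (0.55, adjusted p = 0.0302) was higher. Rab17 had no count in any library, which allows a level of up to 0.224 to 0.355 CPM (3 counts a library). Rab25 had 4 to 11 counts in CCI and 8 to 34 in PVT_WT and Rab4b had 3 to 6 in CCI and 1 to 5 in PVT_WT, and neither was tested. Most of the annotated exon sequence of Rab4b (65.0%) overlaps a read-through gene on the same strand.

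**Figure D3:**
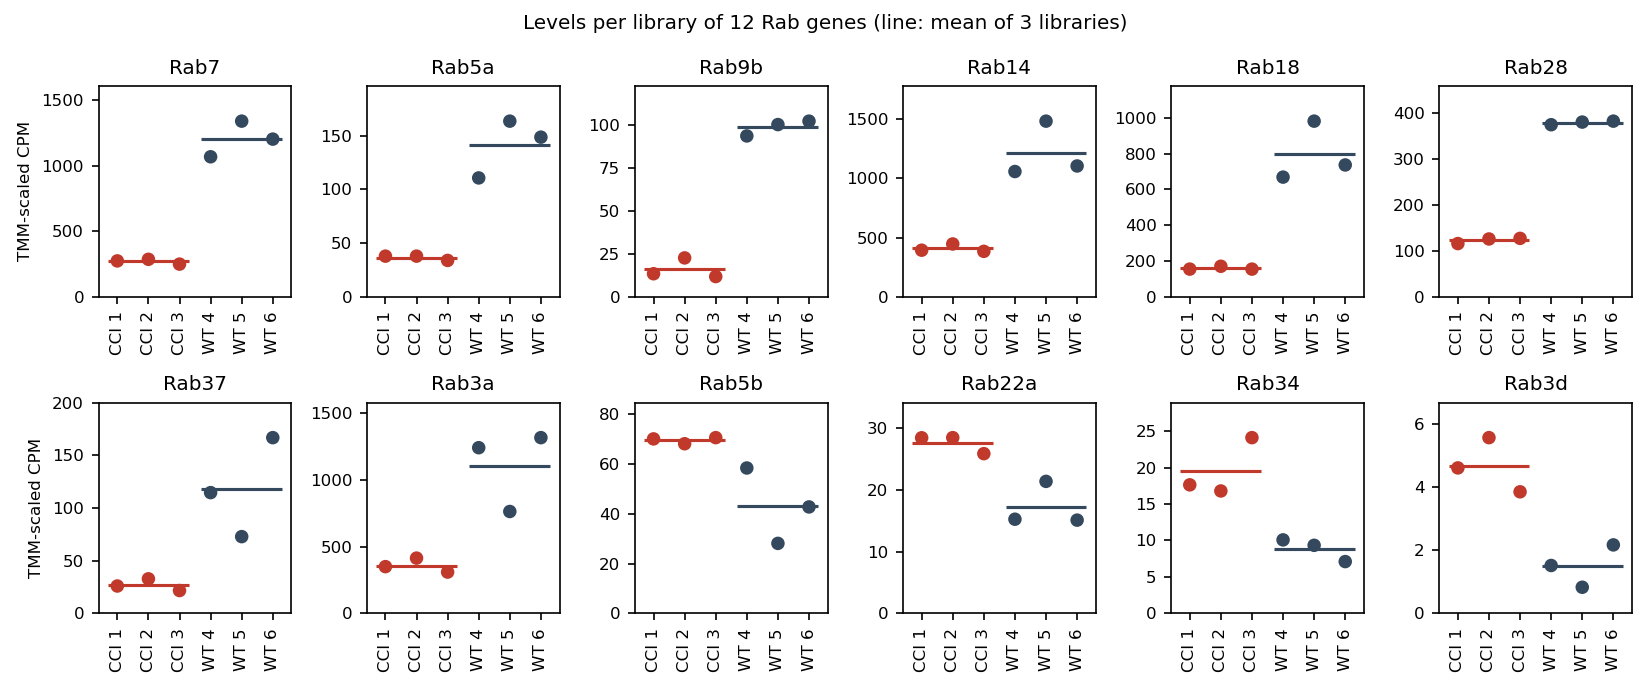
TMM-scaled CPM of 12 Rab genes in each library, with CCI libraries in red on the left and PVT_WT libraries (WT) in dark blue on the right, and a line at the mean of each group. In all 12 the groups do not overlap: the first 8 genes are lower in CCI and Rab5b, Rab22a, Rab34 and Rab3d are higher. PVT_WT replicate 5 lies apart from the other controls for Rab3a, Rab14 and Rab18.

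The balance between paralogs was compared within libraries, as the share of each paralog in the summed FPKM of its subfamily, which does not depend on scaling between libraries. The shares were not corrected for the trends with length, GC content and mean expression. There were 14 subfamilies with 2 or more members, and the most abundant paralog of each was tested with a two-sided exact permutation test over the 6 libraries, in which the smallest possible p is 0.1. In the Rab5 subfamily Rab5a held 21.2%, 20.9% and 19.9% of the summed FPKM in CCI replicates 1 to 3, against 41.6%, 66.8% and 53.7% in PVT_WT replicates 4 to 6. Rab5b held 49.3%, 47.1% and 52.0% in CCI, against 27.6%, 14.4% and 19.4% in PVT_WT. Rab5b was thus the leading paralog in each CCI library and Rab5a in each PVT_WT library, while the share of Rab5c overlapped between groups. Of the 50-base words in the longest Rab5b transcript, 13.0% also occur in transcripts of other genes, so some Rab5b reads may be shared. For Rab5a and Rab5c that part was 0%. The difference for Rab5a was -33.4 percentage points (exact p = 0.1, adjusted p = 0.156 over 14 subfamilies). Rab9b held 10.2%, 14.4% and 8.6% of the Rab9 sum in CCI, against 37.1%, 30.4% and 35.8% in PVT_WT, and the share of Rab9 was 23.3 percentage points higher in CCI (exact p = 0.1, adjusted p = 0.156). In neither subfamily did the shares of these genes overlap between groups. For the longest transcripts of Rab9 and Rab9b, 7.87% and 0.05% of the 50-base words also occur in transcripts of other genes. Some Rab9 reads may thus be shared.

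**Figure D4:**
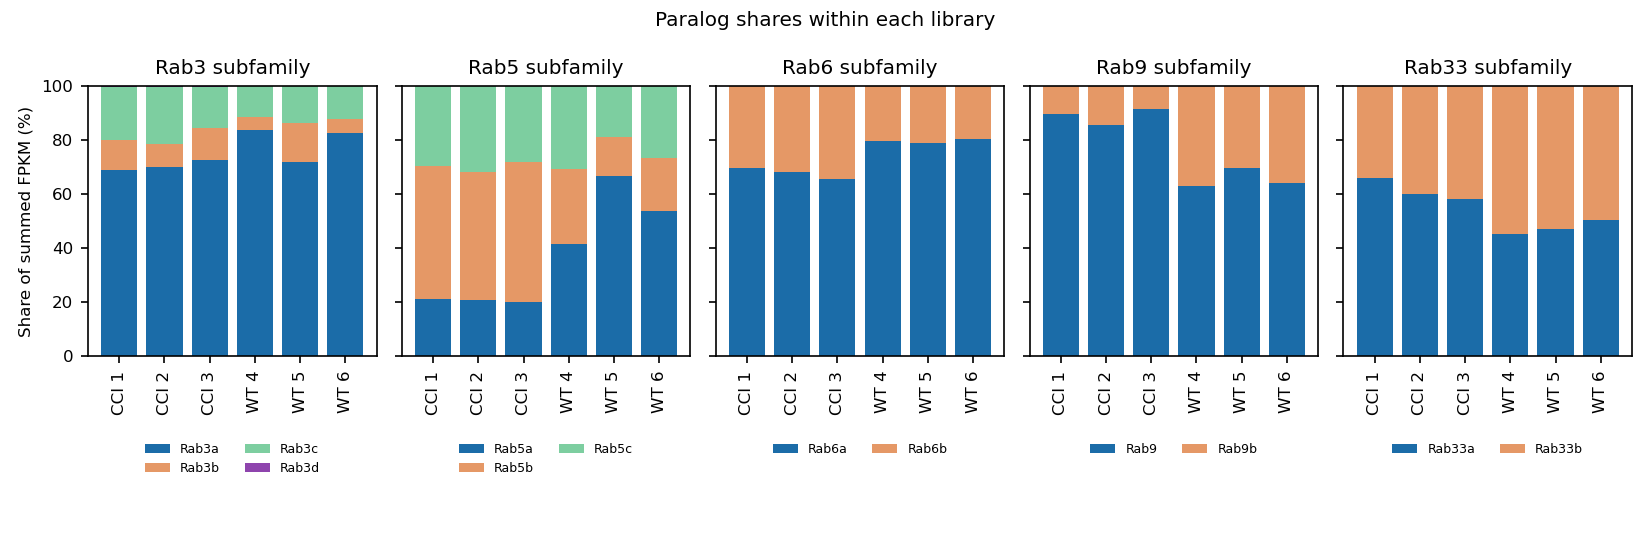
Share of each paralog in the summed FPKM of its subfamily, in percent, for 5 subfamilies in each library, with CCI libraries left of PVT_WT libraries (WT). Rab5a takes 19.9% to 21.2% of the Rab5 sum in CCI and 41.6% to 66.8% in PVT_WT, and Rab9b takes 8.6% to 14.4% of the Rab9 sum in CCI and 30.4% to 37.1% in PVT_WT.

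The promoters of Rab5a, Rab5b, Rab9 and Rab9b are shown as examples. The shares of these genes did not overlap between the groups, and the same held for paralogs of further subfamilies, given below. RefSeq promoter windows (GRCm38.p6) matched 48 of the 59 Rab genes by symbol, and the 250 bases upstream of the annotated start are printed 5′ to 3′ on the strand of the gene. Capitals mark GC boxes (GGGCGG) and CCAAT boxes (CCAAT), each in either orientation. The windows are chr17:53478984-53479233 (plus strand) for Rab5a, chr10:128696269-128696518 (minus) for Rab5b, chrX:166479868-166480117 (minus) for Rab9 and chrX:136868557-136868806 (minus) for Rab9b.
Rab5a: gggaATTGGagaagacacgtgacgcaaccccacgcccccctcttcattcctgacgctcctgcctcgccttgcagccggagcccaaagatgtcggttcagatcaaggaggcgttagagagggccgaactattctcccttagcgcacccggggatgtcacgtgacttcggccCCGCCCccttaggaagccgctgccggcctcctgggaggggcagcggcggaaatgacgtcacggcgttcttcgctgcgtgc
Rab5b: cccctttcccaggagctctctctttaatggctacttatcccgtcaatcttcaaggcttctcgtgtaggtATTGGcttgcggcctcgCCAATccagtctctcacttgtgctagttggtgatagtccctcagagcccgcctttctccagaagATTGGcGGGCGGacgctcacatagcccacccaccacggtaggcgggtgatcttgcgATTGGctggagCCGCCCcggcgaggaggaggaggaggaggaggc
Rab9: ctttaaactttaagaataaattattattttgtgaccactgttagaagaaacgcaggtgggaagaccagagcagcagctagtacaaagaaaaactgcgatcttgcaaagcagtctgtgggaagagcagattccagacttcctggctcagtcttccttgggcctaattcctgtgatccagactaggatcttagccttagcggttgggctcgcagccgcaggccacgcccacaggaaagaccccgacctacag
Rab9b: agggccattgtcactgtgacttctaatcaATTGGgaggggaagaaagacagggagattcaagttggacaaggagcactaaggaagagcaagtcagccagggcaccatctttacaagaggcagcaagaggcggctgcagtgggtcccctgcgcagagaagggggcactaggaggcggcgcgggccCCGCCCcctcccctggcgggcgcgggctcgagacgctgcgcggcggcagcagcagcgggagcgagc
The Rab5a window holds 1 GC box, 1 CCAAT box, 2 E-boxes (CACGTG) and a cAMP response element (TGACGTCA), and that of Rab5b holds 2 GC boxes and 4 CCAAT boxes. The Rab9b window has 1 of each box and the Rab9 window has neither. A GC box was found in the upstream window of 36 of the 48 Rab genes (75.0%), against 35.4% of all 27025 genes of the promoter table, and a CCAAT box in 24 (50%), against 37.5%. The median GC content of these windows was 61.6% in Rab genes and 52.4% in all genes. Among Rab genes called lower 13 of 18 had a GC box, as did 4 of 4 called higher and 18 of 22 that did not pass. A TATA box (TATAAA) was present in 4 of the 48 (8.33%, against 14.3% of all genes), an E-box in 5 (10.4%, against 6.86%) and a cAMP response element in 2 (4.17%, against 1.77%). Both strands were searched, and none of these motifs contains another. A match describes the letters of the window and does not show binding.

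Secretory Rabs direct newly made proteins from the endoplasmic reticulum through the Golgi to the cell surface and back. Of 19 genes 18 were tested, of which 8 were lower, 1 was higher and 9 did not pass, with a median of -0.59, which was 0.08 on log2(FPKM + 1). Thus 44.4% were lower and 5.56% higher, against 25.3% and 27.0% of all tested genes. Rab18 (ENSMUSG00000073639), which acts at the endoplasmic reticulum and on lipid droplets, had 155, 171 and 155 CPM in CCI and 669, 982 and 737 CPM in PVT_WT. It fell by 2.31 ± 0.22 (adjusted p = 0.000207), and its level was 4.96-fold higher in PVT_WT. Every CCI library was far below every PVT_WT library, and the log2 fold change was at most -1.66 in each of the 16 alternatives.

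Rab2a, Rab1a and Rab6a, which act between the endoplasmic reticulum and the Golgi, were called lower, while the paralogs Rab2b and Rab1b did not pass. Rab2a had 131, 140 and 130 CPM in CCI and 259, 396 and 305 CPM in PVT_WT (-1.26 ± 0.20, adjusted p = 0.00121). Rab1a had 189, 196 and 153 CPM in CCI and 309, 382 and 342 CPM in PVT_WT (-0.94 ± 0.18, adjusted p = 0.00312). Rab6a, which returns membrane from the Golgi to the endoplasmic reticulum, had 448, 439 and 398 CPM in CCI and 738, 732 and 813 CPM in PVT_WT (-0.83 ± 0.18, adjusted p = 0.00579). The groups did not overlap in CPM for these 3 genes, but their directions depended on the correction: with length, GC content and mean expression fitted out Rab2a, Rab1a and Rab6a were at 0.10, 0.18 and 0.45, and none passed (adjusted p = 0.586, 0.344 and 0.0823). On log2(FPKM + 1) Rab1a and Rab6a did not pass either (-0.34 and -0.23, adjusted p = 0.0902 and 0.285). Of the annotated exon sequence of Rab6a, 19.0% overlaps exons of the opposite strand, mainly of Mrpl48, and no strand setting is stated for the counts.

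The remaining Golgi and post-Golgi Rab genes that fell differed in how far the calls held. Rab33b, which acts at the Golgi and in autophagosome formation, had 51.6, 57.4 and 60.1 CPM in CCI and 106, 103 and 120 CPM in PVT_WT (-0.96 ± 0.15, adjusted p = 0.00114), but -0.10 with length, GC content and mean expression fitted out (adjusted p = 0.632) and -0.34 on log2(FPKM + 1) (adjusted p = 0.129). Rab30, a Golgi Rab, had 47.9, 50.8 and 56.9 CPM in CCI and 84.7, 126 and 95.5 CPM in PVT_WT (-0.97 ± 0.19, adjusted p = 0.00282), and was at -1.11 in that correction (adjusted p = 0.000857), but did not pass on log2(FPKM + 1) (-0.32, adjusted p = 0.0905). Rab8a, which carries cargo from the Golgi to the plasma membrane and the primary cilium, had 81.2, 85.2 and 78.3 CPM in CCI and 152, 381 and 154 CPM in PVT_WT. Its control replicate 5 was far above the other controls, and its log2 fold change was -1.49 ± 0.35 (adjusted p = 0.00736) with that library and -0.93 without it (adjusted p = 4.09e-05). Rab8a did not pass with length, GC content and mean expression fitted out (-0.78, adjusted p = 0.104). Its paralog Rab8b, which acts on the same route, was called lower (-0.57 ± 0.18, adjusted p = 0.0243) and was at 0.02 on log2(FPKM + 1), where it did not pass (adjusted p = 0.944). The Rab8b call was also lost on leaving out CCI replicate 1 or 2 or PVT_WT replicate 6 (adjusted p = 0.0660 to 0.112).

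Rab34 was the secretory Rab gene called higher. The protein acts at the Golgi and in the formation of primary cilia. Rab34 (ENSMUSG00000002059, chromosome 11, 78079256 to 78083019, plus strand, GRCm39) had 17.6, 16.8 and 24.1 CPM in CCI and 10.1, 9.34 and 7.11 CPM in PVT_WT. All CCI libraries lay above all PVT_WT libraries, a rise of 2.21-fold (1.15 ± 0.23, adjusted p = 0.00387), with log2 fold changes of 0.81 to 1.71 over the alternatives.

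Some abundant secretory Rab genes did not pass. Rab6b, the brain-enriched paralog of Rab6a, had 266, 278 and 281 CPM in CCI and 256, 265 and 267 CPM in PVT_WT, and the groups overlapped (0.07 ± 0.16, adjusted p = 0.735). Within the Rab6 subfamily Rab6a held 69.5%, 68.0% and 65.6% of the summed FPKM in CCI and 79.6%, 78.8% and 80.4% in PVT_WT, without overlap (exact p = 0.1, adjusted p = 0.156). Rab6b was higher on log2(FPKM + 1), at 0.66 (adjusted p = 0.00712), and with length, GC content and mean expression fitted out, at 0.81 (adjusted p = 0.00245). Rab10, of the exocytic route to the plasma membrane, had 143, 132 and 190 CPM in CCI and 198, 94.2 and 199.96 CPM in PVT_WT, with PVT_WT replicate 5 below all other libraries. Rab1b showed the same control library as an exception, at 74.5, 78.5 and 80.8 CPM in CCI and 161, 52.1 and 143 CPM in PVT_WT. Neither passed with all libraries (Rab10 -0.08 ± 0.29, adjusted p = 0.831, and Rab1b -0.61 ± 0.35, adjusted p = 0.176). Rab1b was lower without PVT_WT replicate 5 (-0.98, adjusted p = 3.21e-05) and with length and GC content fitted out (-0.81, adjusted p = 0.0396). With length, GC content and mean expression fitted out Rab1b did not pass (-0.05, adjusted p = 0.895) and Rab10 was higher (0.98, adjusted p = 0.0475). In the Rab33 subfamily Rab33a held 65.8%, 60.2% and 58.0% of the summed FPKM in CCI and 45.0%, 46.9% and 50.4% in PVT_WT, also without overlap. Rab2b, Rab13, Rab33a, Rab39, Rab39b and Rab43 had log2 fold changes of -0.76 to 0.47 and did not pass, though Rab39b was lower without PVT_WT replicate 5 (-0.43, adjusted p = 0.0159) and by the DESeq2 Wald test (-0.42, adjusted p = 0.0395), and Rab13 was higher on log2(FPKM + 1) (0.75, adjusted p = 0.00415). Rab19 had 1 to 4 counts in CCI and 1 to 8 in PVT_WT and was not tested. Exons of other genes cover 64.0% of Rab2b on the opposite strand and 75.4% of Rab43 on the same strand.

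Synaptic and regulated-exocytosis Rabs bring secretory vesicles to their release sites. All 8 were tested, of which 6 were lower (75%), 1 was higher (12.5%) and 1 did not pass, with a median of -1.11. Over all tested genes 25.3% were lower and 27.0% higher. On log2(FPKM + 1) 3 synaptic genes were lower and 1 higher with a median of -0.38, where 9.64% of all genes were lower and 47.6% higher. Rab3a (ENSMUSG00000031840, chromosome 8, 71207328 to 71211323, plus strand, GRCm39), the main Rab of synaptic vesicles, had 351, 415 and 310 CPM in CCI and 1243, 764 and 1318 CPM in PVT_WT. It was lower in every CCI library than in any PVT_WT library, with replicate 5 the lowest control, and its log2 fold change was -1.63 ± 0.27 (adjusted p = 0.00141). With length, GC content and mean expression fitted out Rab3a was at -0.55 and did not pass (adjusted p = 0.109). Of the 8 pan-neuronal markers, Snap25 and Syn1 were lower in the same libraries, Map2 was higher and 5 did not pass, and without Snap25 their summed levels were close, as given above. Their part in the Rab3a result was not tested.

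The Rab3 paralogs moved by different amounts. Rab3c had 543, 671 and 351 CPM in CCI and 915, 788 and 1055 CPM in PVT_WT (-0.82 ± 0.27, adjusted p = 0.0327). Rab3b had 89.5, 82.9 and 79.5 CPM in CCI and 110, 239.6 and 134 CPM in PVT_WT (-0.94 ± 0.28, adjusted p = 0.0200). Both lay lower in CCI without overlap in CPM but overlapped in FPKM, and neither passed on log2(FPKM + 1) (adjusted p = 0.466 and 0.310). The Rab3c call was lost on leaving out CCI replicate 1 or 3 or PVT_WT replicate 4 or 6 (adjusted p = 0.0519 to 0.101), and the Rab3b call on leaving out CCI replicate 1, 2 or 3 (adjusted p = 0.0526 to 0.0733). Rab3b was at -0.05 and Rab3c at -0.59 with length, GC content and mean expression fitted out, and neither passed (adjusted p = 0.894 and 0.149). Rab3d, known from secretory granules of exocrine and other secretory cells, was called higher at a low level. It had 4.61, 5.57 and 3.85 CPM in CCI, from 46, 61 and 50 counts, and 1.52, 0.827 and 2.17 CPM in PVT_WT, from 17, 7 and 29 counts. Its log2 fold change was 1.59 ± 0.38 (adjusted p = 0.00797), and 1.06 with length, GC content and mean expression fitted out (adjusted p = 0.0503). Rab3d held 0.48% to 0.50% of the summed FPKM of the Rab3 subfamily in CCI and 0.04% to 0.07% in PVT_WT, while the share of Rab3a, 68.8% to 72.6% in CCI and 72.0% to 83.9% in PVT_WT, overlapped between groups.

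Rab27a, Rab27b and Rab37 were called lower. Rab27b, which acts in the docking of secretory granules, had 35.5, 42.1 and 27.7 CPM in CCI and 69.9, 128 and 82.2 CPM in PVT_WT (-1.41 ± 0.26, adjusted p = 0.00239). Its paralog Rab27a, which docks granules and melanosomes, had 15.7, 17.0 and 10.1 CPM in CCI and 24.7, 54.6 and 24.2 CPM in PVT_WT (-1.27 ± 0.35, adjusted p = 0.0156). The groups did not overlap for either gene, though Rab27a did not pass without CCI replicate 3 (-1.07, adjusted p = 0.0670) or on log2(FPKM + 1) (-0.51, adjusted p = 0.120). Rab37, which acts in regulated secretion, had 26, 32.8 and 21.6 CPM in CCI and 115, 72.8 and 167 CPM in PVT_WT, a fall of 2.14 ± 0.30 on the log2 scale (adjusted p = 0.000762). Rab26, found on secretory granules and synaptic vesicles, had 36.1, 43.7 and 34.8 CPM in CCI and 44.3, 47.9 and 54.2 CPM in PVT_WT. It did not pass (-0.35 ± 0.16, adjusted p = 0.0990). It was lower without PVT_WT replicate 5 (-0.40, adjusted p = 0.0370) and with length and GC content fitted out (-0.49, adjusted p = 0.0481).

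Of the 11 other Rab genes 10 were tested, of which 3 were lower, none was higher and 7 did not pass, with a median of -0.28, which was 0.28 on log2(FPKM + 1). The share called lower, 30%, was near the 25.3% of all tested genes, of which 27.0% were higher. At an unadjusted p of 0.05 Rab42 alone was higher, and by the DESeq2 Wald test 0 were called higher. Rab28, a Rab of ciliated photoreceptor outer segments in the retina, had 116, 126 and 127 CPM in CCI and 375, 381 and 383 CPM in PVT_WT. Both groups were tight and far apart for this gene (-1.62 ± 0.16, adjusted p = 0.000224). Rab38, which with Rab32 serves the biogenesis of melanosomes and related organelles, had 2.40, 1.92 and 2.16 CPM in CCI and 6.25, 7.33 and 4.49 CPM in PVT_WT (-1.47 ± 0.30, adjusted p = 0.00391). The autophagy-linked gene Rab24 had 7.42, 5.84 and 9.63 CPM in CCI and 11, 13.1 and 12 CPM in PVT_WT. Rab24 passed narrowly (-0.65 ± 0.24, adjusted p = 0.0484), it did not pass in 10 of the 16 alternatives, and 62.4% of its annotated exon sequence overlaps exons of the opposite strand, mainly of Prelid1.

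Rab42 and Rab23 did not pass. Rab42 had 3.71, 4.47 and 3.78 CPM in CCI and 1.96, 2.60 and 2.77 CPM in PVT_WT (0.70 ± 0.29, adjusted p = 0.0678), and on log2(FPKM + 1) it was higher (1.05, adjusted p = 0.00122). Rab23, which restrains Hedgehog signalling at the primary cilium, had 21.7, 21.7 and 21.1 CPM in CCI and 31.1, 22.9 and 27.6 CPM in PVT_WT (-0.34 ± 0.17, adjusted p = 0.129), and it was lower without PVT_WT replicate 5 (-0.47, adjusted p = 0.0123) and with length, GC content and mean expression fitted out (-0.71, adjusted p = 0.0120). The lysosomal Rab gene Rab29 had 11.2, 11 and 10.4 CPM in CCI and 11.5, 13.6 and 11.8 CPM in PVT_WT (-0.18 ± 0.19, adjusted p = 0.450), and Rab40b, of the Rab40 proteins that carry a SOCS box, had 25.0, 23.8 and 35.0 CPM in CCI and 35.5, 23.8 and 37.9 CPM in PVT_WT (-0.22 ± 0.23, adjusted p = 0.459). For Rab29 the direction turned with the scale, since CCI lay wholly below PVT_WT in CPM and wholly above it in FPKM. Rab32, Rab36 and Rab40c lay between -0.56 and 0.48 and did not pass, though on log2(FPKM + 1) Rab36 (0.77, adjusted p = 0.0438) and Rab40c (0.97, adjusted p = 0.0244) were higher. Rab44 had 0, 2 and 3 counts in CCI and none in PVT_WT and was not tested.

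The order of levels among Rab genes differed between groups on the deposited FPKM scale. In PVT_WT the most abundant were Rab3a, at 417 ± 157 FPKM, and Rab7, at 373 ± 23.9 FPKM, which did not differ beyond their spread, followed by Rab6a at 167 ± 28.7 FPKM (SD, n = 3). Rab31 was above Rab6a in PVT_WT replicate 5, at 172 against 135 FPKM. In CCI Rab3a was at 198 ± 26.9 FPKM, Rab6a at 141 ± 9.40 FPKM, Rab7 at 127 ± 8.13 FPKM and Rab31 at 120 ± 24.3 FPKM, where the values of the last 3 overlapped and Rab31 was above both others in replicate 3. Within each CCI library Rab6a was above Rab7, at 150 and 131 FPKM in replicate 1, 142 and 133 FPKM in replicate 2 and 131 and 118 FPKM in replicate 3. In PVT_WT replicates 4, 5 and 6 Rab6a was at 178, 135 and 189 FPKM and Rab7 was above it at 368, 352 and 399 FPKM. At the low end, Rab3d, Rab7b, Rab39 and Rab43 averaged under 1 FPKM over all libraries, as did the 5 genes that were not tested.

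Genes that load, switch off, carry or are bound by Rab proteins were more often higher than lower in CCI after TMM scaling. With length and GC content fitted out 16 were higher and 19 lower, with a median of -0.04. In that correction 2836 of all 14241 tested genes were higher and 3894 lower, with a median of -0.08. Of 84 listed regulators and effectors all were tested, of which 33 were higher, 11 lower and 40 did not pass, with a median of 0.41, against 27.0% higher and 25.3% lower over all genes. On log2(FPKM + 1) 56 were higher and 4 lower, and with length, GC content and mean expression fitted out 20 were higher and 9 lower with a median of -0.02. Those that deliver and prenylate Rab proteins did not share that direction, with 4 of 8 lower and none higher (none was higher by unadjusted p or by the DESeq2 Wald test either). Rabif, a chaperone-like factor that binds nucleotide-free Rab proteins, fell by 1.44 ± 0.17 (adjusted p = 0.000391), and Rabggtb, a subunit of the geranylgeranyl transferase, by 1.15 ± 0.15 (adjusted p = 0.000612). With length, GC content and mean expression fitted out Rabif and Rabggtb were at -0.48 and -0.15 and did not pass (adjusted p = 0.0587 and 0.369). Gdi2, a GDP dissociation inhibitor, was lower (-0.56 ± 0.19, adjusted p = 0.0351) and was at 0.04 on log2(FPKM + 1), where it did not pass (adjusted p = 0.827).

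Effectors, which bind the active Rab, included 15 higher (44.1%) and 1 lower (2.94%) among 34, against 27.0% and 25.3% of all tested genes. Counts by list were not made with length and GC content fitted out. There the 84 regulators and effectors together gave 16 higher and 19 lower, against 2836 and 3894 of all 14241 tested genes. The Rab5 effector Eea1, which tethers early endosomes, rose by 1.97 ± 0.17 (adjusted p = 0.000185), to 64.2 ± 8.60 CPM in CCI, against 16.4 ± 1.57 CPM in PVT_WT (SD, n = 3). The Rab11 effector Rab11fip2 rose by 2.14 ± 0.18 (adjusted p = 0.000181), the recycling endosome protein gene Micall1 by 2.85 ± 0.24 (adjusted p = 0.000181) and the inositol phosphatase gene Ocrl by 1.03 ± 0.15 (adjusted p = 0.000740). These 4 genes were higher in CCI in each of the 16 alternatives. In the same libraries Rab5a and Rab11a, whose proteins Eea1 and Rab11fip2 bind, were lower. The Rab5a paralog Rab5b was called higher (0.69, adjusted p = 0.0406). With length, GC content and mean expression fitted out Rab5a was at -1.43 (adjusted p = 0.000529), while Rab11a was at -0.23 and did not pass (adjusted p = 0.432).

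Exchange factors and GTPase-activating proteins were mostly higher where they passed. Of 22 exchange factor genes 9 were higher (40.9%) and 4 lower (18.2%), against 27.0% and 25.3% of all tested genes. The Rab35 exchange factor gene Dennd1a rose by 1.55 ± 0.18 (adjusted p = 0.000364), Dennd4c, which loads Rab10, by 1.55 ± 0.19 (adjusted p = 0.000383) and Dennd4a by 0.95 ± 0.15 (adjusted p = 0.00135). Rabgef1, the Rab5 exchange factor gene, fell by 1.15 ± 0.15 (adjusted p = 0.000606) and stayed lower in all 16 alternatives. Of 20 GTPase-activating protein genes 9 were higher (45%) and 2 lower (10%), against the same shares of all genes. Among them were Rabgap1l at 1.35 ± 0.16 (adjusted p = 0.000385), Tbc1d5, which acts on Rab7, at 1.30 ± 0.21 (adjusted p = 0.00124), Evi5 at 1.15 ± 0.17 (adjusted p = 0.000984) and Tbc1d10b at 1.11 ± 0.18 (adjusted p = 0.00141). With length, GC content and mean expression fitted out, Dennd1a (0.44, adjusted p = 0.119), Dennd4a (0.23, adjusted p = 0.234) and Tbc1d5 (0.35, adjusted p = 0.181) did not pass. With length and GC content alone fitted out Rabgap1l did not pass (0.29, adjusted p = 0.106).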

How the data were processed

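RNA was measured in 6 libraries, 3 labelled CCI and 3 labelled PVT_WT. The authors deposited one table with raw read counts and FPKM per gene and library, with coordinates on GRCm39, and its FPKM followed from its counts and lengths to within a relative deviation of 1.26e-07. Per the submitters' processing notes, the tools were StringTie 2.2.1, DESeq 1.38.3, HTSeq 0.9.1, fastp 0.22.0 and HISAT2 2.1.0, listed in no order. Read length, strand setting and annotation release are not given in the sources used here. All 6 sample columns were matched to labels, and 0 per-sample columns were left out.

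Counts of all genes in the table were filtered with filterByExpr, scaled by TMM and tested with edgeR 4.0.16 (quasi-likelihood test, Benjamini-Hochberg adjustment over 14259 genes, threshold 0.05, R 4.3.3), CCI over PVT_WT, with no covariate. Alternatives were limma 3.58.1 on log2(FPKM + 1) and log2(FPKM + 0.1), DESeq2 1.42.0 (its Wald test and its size factors), no filter, a stricter filter (50 counts in 3 libraries), leaving out each library, and offsets that remove a spline trend (5 degrees of freedom) on gene length, or on length and mean expression. Offsets that include GC content were chosen after seeing the data, and 14241 tested genes had a GC value. GC content, exon overlaps and shared 50-base words came from GENCODE M21 transcripts (GRCm38), joined by identifier, and no coordinates were moved between builds. Scripts were tested on simulated data.

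The Rab genes, role classes and regulator lists were chosen with earlier results of these data known. Values per library are given, in each role class, for the 5 genes with the smallest p and the 3 with the highest mean FPKM, and for other members that a comparison of paralogs or libraries called for, chosen after their values were seen. Of each regulator list the 4 genes with the smallest p are named, except 1 that is not reported here. At these depths 3 counts, the limit that a count of 0 allows, correspond to 0.224 to 0.355 CPM, which covers counting error only.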

Additional observations from a re-analysis of the deposited data

How the results depend on the processing

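The balance of higher and lower genes changed with the scale and with the corrections for length, GC content and mean expression, and the cause was not tested. On log2(FPKM + 0.1) and log2(FPKM + 1), 6632 and 6785 of all tested genes were higher and 1345 and 1374 lower. On the same scales, 12 and 14 Rab genes were higher and 14 and 14 lower, with medians of 0.018 and 0.016. By role on these scales, 5 and 6 endocytic, 3 and 3 secretory, 1 and 1 synaptic and 3 and 4 other Rab genes were higher. Lower were 6 and 6 endocytic, 3 and 3 secretory, 3 and 3 synaptic and 2 and 2 other ones. Medians turned to 0.15 and 0.12 for endocytic, 0.085 and 0.078 for secretory and 0.33 and 0.28 for other Rab genes, and single genes to 0.0172 and 0.0168 (Rab9), 0.42 and 0.38 (Rab29), 0.018 and 0.015 (Rab8b) and 0.0414 and 0.0403 (Gdi2). Regulators and effectors were then 54 and 56 higher and 4 and 4 lower.

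Under the length and mean expression correction, 2545 of all 14259 tested genes were higher and 2769 lower, with a median of -0.03. Of 54 tested Rab genes 3 were higher and 15 lower, with a median of -0.19. That setting gave 1 higher and 4 lower endocytic, 2 higher and 5 lower secretory and 0 higher and 3 lower synaptic Rab genes. It gave 18 higher and 9 lower regulators, and values of 0.22 (Rab9), 0.029 (Rab1a) and 0.30 (Rab6a). With GC content added, 5 Rab genes were higher and 13 lower (median -0.079), against 2610 and 2719 of all 14241 tested genes. By role, 2 endocytic genes were higher and 4 lower, 3 secretory higher and 2 lower, and 0 synaptic higher and 3 lower. Of the regulators 20 were higher and 9 lower. Values were 0.47 (Rab9), 0.10 (Rab2a), 0.18 (Rab1a), 0.45 (Rab6a) and 0.98 (Rab10). The length and GC correction gave 4 higher and 23 lower Rab genes, against 2836 and 3894 of all 14241 tested genes. It gave 1 higher and 7 lower endocytic genes, 2 higher and 7 lower secretory genes, and 16 higher and 19 lower regulators. The Rab median was -0.43, and Rab9 was at 0.053. The length correction gave 3 higher and 24 lower Rab genes, against 2969 and 3957 of all 14259 tested genes. It gave 1 higher and 7 lower endocytic genes, and 20 higher and 16 lower regulators. With the stricter filter 0 synaptic genes were higher, since fewer genes were tested.

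Leaving out one library in turn gave 2 to 5 higher and 20 to 30 lower Rab genes, 0 to 3 higher endocytic and 3 to 7 lower synaptic genes, and 21 to 38 higher and 7 to 17 lower regulators. In the same fits 2881 to 4560 of all 14435 to 14497 tested genes were higher and 2630 to 4415 lower. Rab genes, regulators and all genes each had the most calls without PVT_WT replicate 5. No paired analysis was possible because the groups share no replicate numbers. Depth limits the low members: with 3 libraries a group, fold changes of genes near the count limit have wide errors.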

Other observations

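In further subfamilies the paralog shares did not overlap between groups, though none passed after adjustment. In the Rab40 subfamily Rab40b held 62.4%, 62.3% and 64.0% of the summed FPKM in CCI and 74.8%, 76.5% and 70.7% in PVT_WT (exact p = 0.1, adjusted p = 0.156 over 14 subfamilies). The most abundant paralogs Rab11a, Rab8a, Rab2a and Rab7 also held lower shares in CCI without overlap between groups, by 4.2, 6.0, 1.3 and 0.6 percentage points in the mean. With length, GC content and mean expression fitted out, the order turned for Rab2a and Rab2b (0.10 and -0.39) and for Rab11a and Rab11b (-0.23 and -0.44). It stayed for Rab40b and Rab40c (0.38 and 0.48), Rab8a and Rab8b (-0.78 and -0.47), and Rab7 and Rab7b (-0.78 and -0.44). The shares of Rab1a, Rab4a, Rab27a and Rab39b overlapped between groups (exact p = 0.8, 0.2, 0.4 and 0.3). With 3 libraries in each group no exact p under 0.1 was possible.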
